A study of Mus musculus with 2 samples.

Results

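A set of 9 genes of the cellular response to low oxygen was followed in donor T cells after allogeneic transplantation. They were Hif1a, Egln1, Egln3, Bnip3, Pdk1, Ddit4, P4ha1, Ero1l and Ankrd37, that is 9 of the 32285 genes in the count tables, taken by symbol because they belong to the hypoxia response but not to the glycolytic pathway. All 9 symbols were found once, and all 9 passed the minimum of 100 UMIs (unique molecular identifiers, which count captured RNA molecules) over both libraries in T cells. The data were 2 single-cell RNA libraries from spleen, 1 from day +7 and 1 from day +14 after allogeneic hematopoietic cell transplantation. At both times lethally irradiated BALB/c mice carried T cell-depleted marrow and splenic T cells of C57BL/6 donors, and donor T cells were sorted as CD45+ H2kb+ H2kd- TCRβ+. The study's methods describe the injected cells of this model as naive, while its figure legends for the single-cell data name splenic T cells only. The study's methods describe age-matched female mice and also in vivo work with both sexes, and neither labels nor methods tie an age or sex to these libraries. No gene was deleted in the donors, and the library names mention PBS at both times and GVHD at day 14. Cells of several spleens were pooled before capture, so each time point was 1 library with no replicate. No test between the times could be made, the spread between mice is unknown, and every interval below covers counting error only. The days are those in the sample titles, although the protocol text of either sample mentions sorting at day +7.

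The pathway turns on the stability of a transcription factor. Hif1a encodes HIF-1α, which is made continuously, hydroxylated by the oxygen-dependent enzymes encoded by Egln1 and Egln3, and then destroyed through the von Hippel-Lindau ubiquitin ligase. When oxygen is short the hydroxylases slow, HIF-1α pairs with ARNT and binds short hypoxia response elements in target genes, which include Egln1 and Egln3 themselves. In T cells HIF-1α is also raised by antigen receptor and mTOR signalling at normal oxygen, and the protein was not measured here.

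The 4 genes with the highest day 14 over day 7 ratios below are shown with the bases just before their RefSeq transcription start in the GRCm38.p6 build, because the core letters of a hypoxia response element can be seen in them. Each is written 5′ to 3′ on the gene's strand, without bases inside the annotated gene. Capitals mark ACGTG or GCGTG on the strand shown, or the same letters on the other strand, where they read CACGT or CACGC.
Bnip3, chr7:138909520-138909756, minus strand: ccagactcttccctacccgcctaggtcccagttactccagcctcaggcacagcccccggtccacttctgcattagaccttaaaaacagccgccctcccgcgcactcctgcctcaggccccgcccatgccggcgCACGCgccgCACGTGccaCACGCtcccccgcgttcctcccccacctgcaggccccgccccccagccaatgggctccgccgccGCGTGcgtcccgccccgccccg
P4ha1, chr10:59323046-59323295, plus strand: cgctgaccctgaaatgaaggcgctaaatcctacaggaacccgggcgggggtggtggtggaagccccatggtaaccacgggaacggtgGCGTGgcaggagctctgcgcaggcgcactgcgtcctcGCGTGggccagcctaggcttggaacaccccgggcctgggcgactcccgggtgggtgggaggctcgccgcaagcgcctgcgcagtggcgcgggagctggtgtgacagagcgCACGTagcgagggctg
Pdk1, chr2:71872974-71873223, plus strand: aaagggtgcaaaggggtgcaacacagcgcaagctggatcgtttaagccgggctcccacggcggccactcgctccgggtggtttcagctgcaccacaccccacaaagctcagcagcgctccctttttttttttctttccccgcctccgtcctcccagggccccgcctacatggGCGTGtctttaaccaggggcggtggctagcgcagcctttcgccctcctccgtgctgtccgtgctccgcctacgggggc
Egln3, chr12:54203875-54204124, minus strand: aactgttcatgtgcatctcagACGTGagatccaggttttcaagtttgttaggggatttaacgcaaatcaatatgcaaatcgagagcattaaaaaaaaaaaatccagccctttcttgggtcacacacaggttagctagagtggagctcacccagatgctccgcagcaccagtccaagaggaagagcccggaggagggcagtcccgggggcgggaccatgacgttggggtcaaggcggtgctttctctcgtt

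Across the 250 bases before the RefSeq start, each of the 9 genes had a first window with at least 1 such match, and the second window listed for Pdk1 had none. The windows of Hif1a (chr12:73907617-73907866) and Ankrd37 (chr8:45999851-46000100) lie wholly inside the annotated gene spans given below, as does the second of Pdk1. Those of Bnip3, Egln1, Ddit4 and Ero1l lie partly inside theirs. Of all 32851 RefSeq windows of that length, 38.6% held a match, and of the 11481 windows of genes tested in T cells 56.3% did. The letters ACGTG stood in 8 of the 9 genes, all but Pdk1, against 16.6% of all windows and 22% of those of tested genes. The Bnip3 window held 5 matches, of which a pair shares the palindrome CACGTG, the letters also known as an E-box. Hif1a held the same palindrome, which stood in 6.02% of all windows. Ero1l and Ddit4, whose levels differed little between the days, also held 3 and 2 matches. A match describes letters in a window and was not measured as a bound site.

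The libraries had similar UMI totals, with fewer UMIs per cell at day 14. Barcodes with 500 to 7500 genes and at most 15% mitochondrial UMIs were kept, which left 7179 cells at day 7 and 7794 at day 14, with medians of 9210 and 8144 UMIs per cell. T cells, with at least 3 UMIs of 6 T cell receptor and CD3 genes and more of them than of any non-T list, made up 6954 and 7616 of these. The libraries shared 20 barcodes. The summed CD3 and receptor genes stood at 5984 CPM (UMIs per 1000000 UMIs of the cells summed) at day 7 and 7614 CPM at day 14 in T cells, the myeloid list at 65.3 and 57.1 CPM, the erythroid list at 13.1 and 18.4 CPM, and the sum of 7 stress genes at 344 and 341 CPM. Within that sum Egr1 went from 8.52 to 20.2 CPM and Fos from 15.6 to 8.22 CPM. CD8 cells formed most of the sort, with 2421 non-cycling and 3413 cycling cells at day 7 and 2399 and 3553 at day 14. CD4 cells numbered 264 non-cycling and 193 cycling at day 7, and 489 and 206 at day 14. Median UMIs per cell at day 7 and day 14 were 6780 and 5528 in non-cycling CD8 cells and 6882.5 and 4364 in non-cycling CD4 cells. The cycling gates were closer, at 12704 and 12146 in CD8 cells and 12400 and 11998.5 in CD4 cells.

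Of the 9 genes, 8 stood between 1.30 and 4.50 times higher in T cells at day 14, and Bnip3 stood 14.4 times higher. A gene was called different when its ratio reached 1.5-fold and its 95% interval left out 1. By that rule 6 of the 9 genes were called higher (Bnip3, Egln3, P4ha1, Pdk1, Ankrd37 and Egln1) and 0 lower, beside 18.5% of the 11489 tested genes called higher and 5.10% called lower. The median log2 ratio of the 9 was 1.35, beside 0.24 for all tested genes. Scaling by the median ratio of well-covered genes, in place of the library total, lowered every log2 ratio by 0.23, and 5 of the 9 were then called, with Egln1 at 0.45 no longer among them. In the sum over a mixture, less RNA per cell and fewer cells of a type cannot be told apart, so each gene was also followed within gates.

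**Figure D1:**
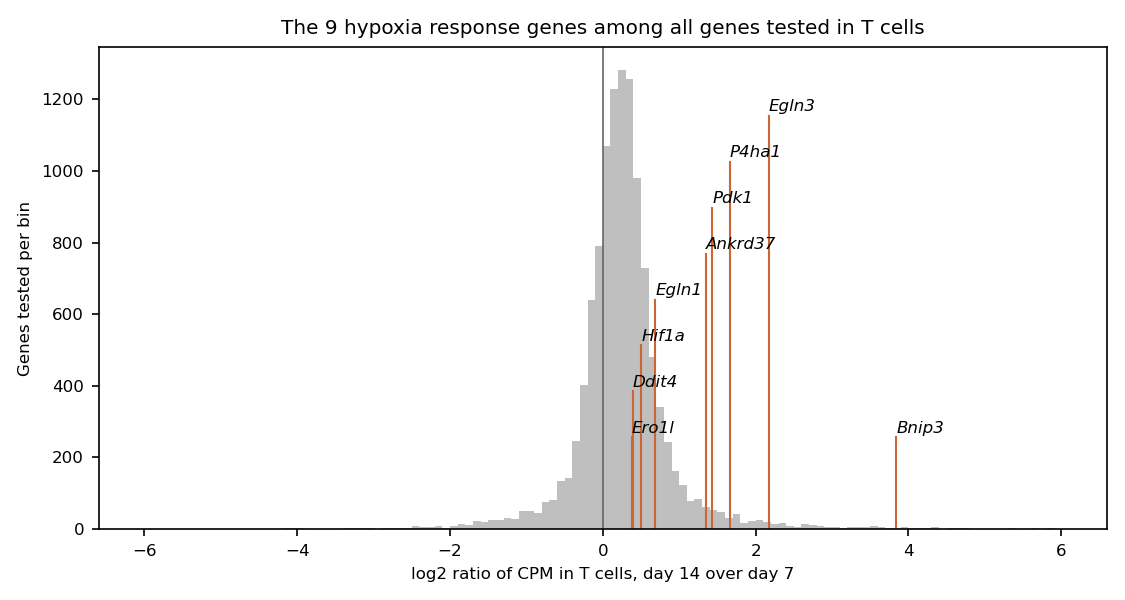
Histogram of the log2 ratio of CPM, day 14 over day 7, for the genes tested in T cells (grey bars, bins 0.1 wide), with the 9 hypoxia response genes as orange lines whose heights only separate the names. Bnip3 stands at 3.84, Egln3 at 2.17 and P4ha1, Pdk1 and Ankrd37 between 1.35 and 1.67, to the right of most genes, while Ero1l, Ddit4 and Hif1a stand between 0.38 and 0.50.

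Hif1a (chr12:73901375-73947530, plus strand) encodes the oxygen-regulated subunit of the factor. Its level in T cells was 115 CPM at day 7 (95% interval 112 to 117) and 162 CPM at day 14 (159 to 165). The log2 ratio was 0.50 (0.46 to 0.54), or 0.27 under median-ratio scaling, which is below the 1.5-fold line in the sum of T cells. Within gates it was called higher in non-cycling CD8 cells, from 96.3 to 157 CPM, in non-cycling CD4 cells, from 187 to 310 CPM, and in cycling CD4 cells, from 136 to 206 CPM. Under median-ratio scaling the calls in non-cycling CD8 cells (0.49) and cycling CD4 cells (0.53) were lost, and that in non-cycling CD4 cells (0.71) was not. In cycling CD8 cells it went from 110 to 143 CPM, a log2 ratio of 0.38 (0.33 to 0.43) that was not called. The order of the gates at day 14 ran from non-cycling CD4 cells (310 CPM) and Foxp3+ cells (297 CPM), whose intervals overlap, through cycling CD4 cells (206 CPM), non-cycling CD8 cells (157 CPM) and cycling CD8 cells (143 CPM) to myeloid cells at 85.8 CPM and erythroid cells at 35.4 CPM. At least 1 Hif1a UMI was found in 4047 of 6954 T cells at day 7 and in 5168 of 7616 at day 14.

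The oxygen-sensing hydroxylases Egln1 and Egln3 were both higher at day 14. Egln1 (chr8:124908587-124949324, minus strand), the main prolyl hydroxylase acting on HIF-1α, stood at 60.6 CPM (58.9 to 62.3) at day 7 and 97.3 CPM (95.2 to 99.5) at day 14, a log2 ratio of 0.68 (0.63 to 0.74). It was called in both CD8 gates and in non-cycling CD4 cells, where it went from 53.6 to 108 CPM. The call in cycling CD8 cells, at 0.60, was lost under median-ratio scaling, at 0.40, and in cycling CD4 cells its log2 ratio was 0.52 (0.26 to 0.78). Egln3 (chr12:54178981-54203860, minus strand), a hydroxylase known for its strong induction by HIF, was sparse. It had 83 UMIs in T cells at day 7 (1.01 CPM, 0.81 to 1.26) and 376 at day 14 (4.56 CPM, 4.11 to 5.05), a log2 ratio of 2.17 (1.83 to 2.53). Cycling CD8 cells, with 51 and 179 UMIs, were the only gate in which Egln3 had enough UMIs for a call, and it was called higher there at 1.80 (1.35 to 2.28).

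Egln3 differed by lineage at day 14. Non-cycling CD4 cells held 33 UMIs, or 13.8 CPM (9.46 to 19.3), and non-cycling CD8 cells 44 UMIs, or 2.94 CPM (2.13 to 3.94). The log2 ratio of CD4 over CD8 was 2.23 (1.53 to 2.91), and the UMIs together fell short of the 100 needed for a call. At day 7 the same gates held 3 and 7 UMIs, too few to order them.

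The mitochondrial members were Bnip3, which encodes an outer-membrane protein that marks mitochondria for mitophagy, and Pdk1, which encodes pyruvate dehydrogenase kinase 1, the enzyme that holds pyruvate back from the tricarboxylic acid cycle. Bnip3 (chr7:138890836-138909519, minus strand) had 77 UMIs in 73 T cells at day 7 and 1112 UMIs in 742 T cells at day 14, with at most 2 and 10 UMIs in a cell. These were 0.94 CPM (0.74 to 1.17) and 13.5 CPM (12.7 to 14.3), a log2 ratio of 3.84 (3.51 to 4.20), and the ratio ranked 53 from the highest among the 11489 tested genes. Its place in that test came mainly from day 14, as did that of Egln3. In non-cycling CD8 cells Bnip3 went from 0.50 CPM, 9 UMIs, to 10.3 CPM, 154 UMIs, and in cycling CD8 cells from 0.81 to 14.1 CPM. The CD4 gates held 1 and 3 UMIs at day 7 and 26 and 34 at day 14, too few for a call, with log2 ratios of 4.42 (1.82 to 9.78) in non-cycling and 3.56 (1.89 to 5.91) in cycling cells. At day 14 the T cell gates stood close together, between 10.3 CPM in non-cycling CD8 cells and 14.1 CPM in cycling CD8 cells, with Foxp3+ cells at 25.4 CPM (16.8 to 37.0).

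Pdk1 (chr2:71873224-71903858, plus strand) stood at 7.72 CPM (7.13 to 8.35) in T cells at day 7 and 20.9 CPM (19.9 to 21.9) at day 14, a log2 ratio of 1.43 (1.30 to 1.57). Pdk1 went from 5.92 to 18.7 CPM in cycling CD8 cells, a log2 ratio of 1.66 (1.47 to 1.85), and from 10.8 to 22.5 CPM in non-cycling CD8 cells, 1.05 (0.80 to 1.32). Among cells of 5000 to 10000 UMIs these ratios were 1.21 (0.76 to 1.68) and 1.15 (0.82 to 1.48), with intervals that overlap. In CD4 cells Pdk1 went from 31 to 65 UMIs in the non-cycling gate (15.7 to 27.1 CPM) and from 12 to 74 in the cycling gate (4.43 to 28.5 CPM), both under the 100 needed for a call. Cycling and non-cycling cells are set side by side below.

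**Figure D2:**
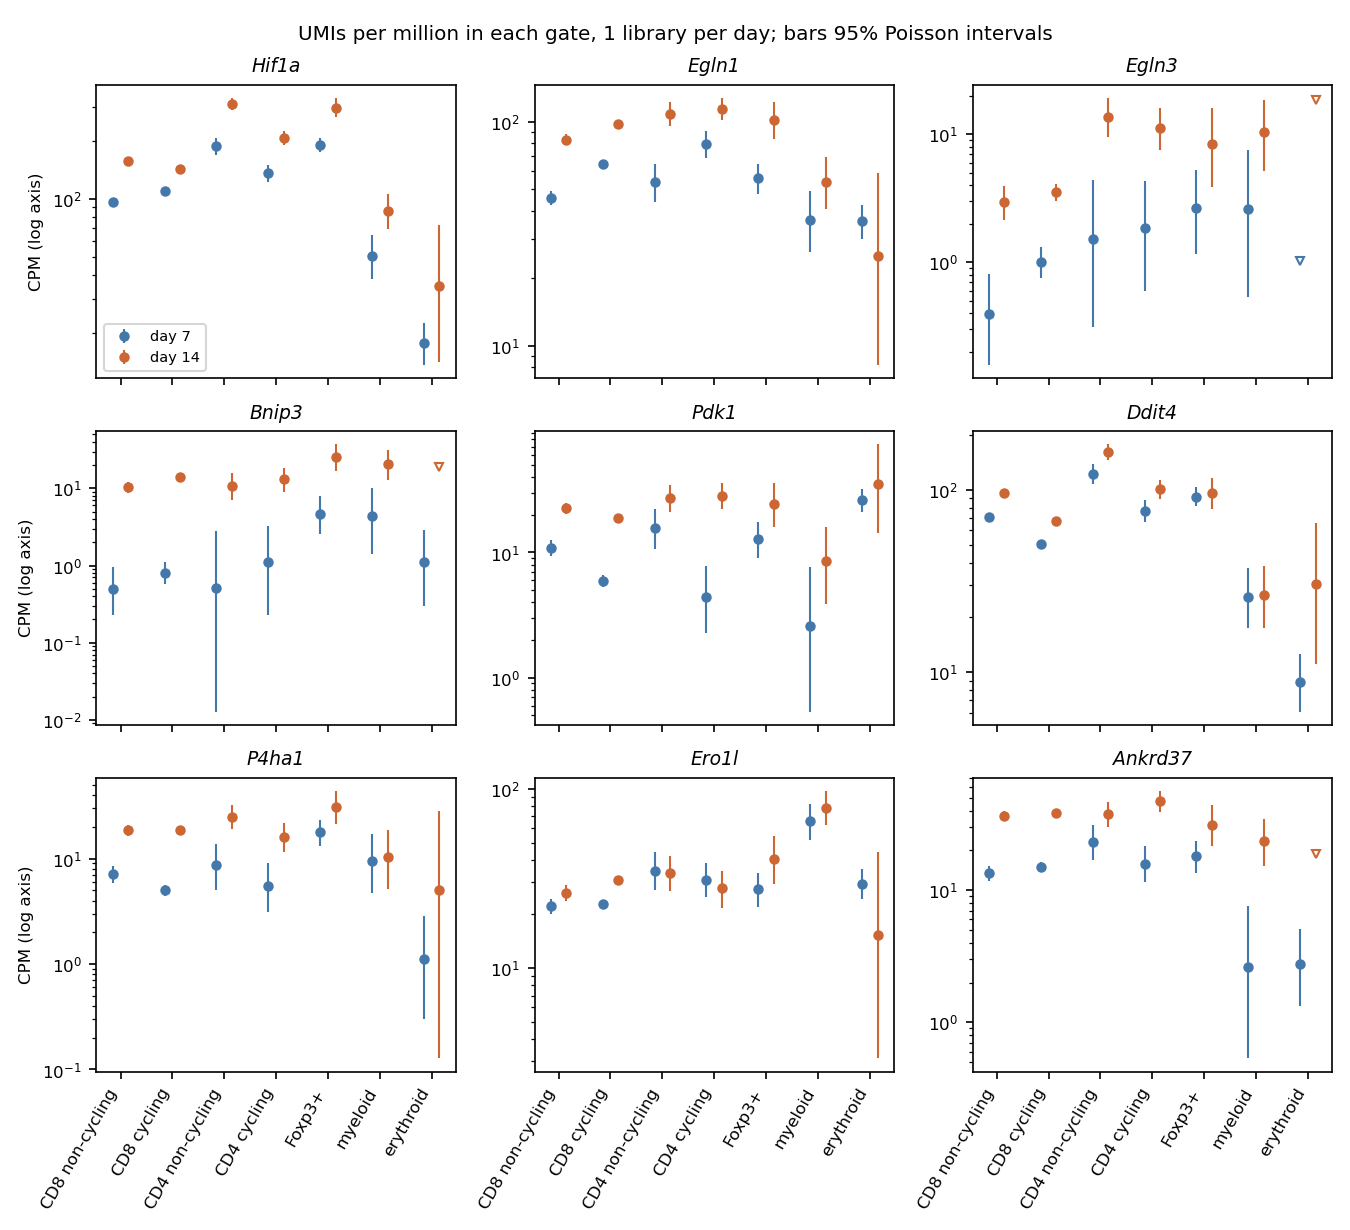
CPM of each of the 9 genes (log axes) in 7 gates, day 7 in blue and day 14 in orange, with 95% Poisson intervals as bars and open triangles at the upper bound where a gate held 0 UMIs. In both CD8 gates the orange point lies above the blue one for all 9 genes, and Ero1l is the gene whose highest level at both times is in myeloid cells.

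Ddit4 (chr10:59949669-59951834, minus strand) encodes REDD1, an inhibitor of mTORC1 induced by hypoxia and other stresses. It stood at 61.6 CPM (59.9 to 63.3) at day 7 and 80.9 CPM (78.9 to 82.8) at day 14, a log2 ratio of 0.39 (0.34 to 0.45), or 0.16 under median-ratio scaling. Its ratio lay between 0.39 and 0.44 in all 4 CD8 and CD4 gates and reached the line for a call in none of them. In Foxp3+ cells the levels were 92.0 and 96.1 CPM, with an interval of the log2 ratio from -0.28 to 0.40.

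P4ha1 and Ero1l serve the folding of secreted proteins, P4ha1 as the catalytic subunit of collagen prolyl 4-hydroxylase and Ero1l as the oxidase that supplies disulfide bonds in the endoplasmic reticulum. P4ha1 (chr10:59323296-59373304, plus strand) stood at 5.96 CPM (5.44 to 6.51) at day 7 and 18.9 CPM (18.0 to 19.9) at day 14, a log2 ratio of 1.67 (1.52 to 1.82). It was called in both CD8 gates, from 7.09 to 18.5 CPM in non-cycling cells and from 5.02 to 18.6 CPM in cycling cells. The non-cycling CD4 gate held 17 and 60 P4ha1 UMIs and the cycling one 15 and 42, too few for a call, and their log2 ratios were 1.54 (0.74 to 2.41) and 1.55 (0.67 to 2.50). Ero1l (chr14:45283087-45318771, minus strand) had, with Ddit4, the smallest differences of the 9, from 23.3 CPM (22.2 to 24.3) to 30.2 CPM (29.0 to 31.4), a log2 ratio of 0.38 (0.29 to 0.46). In the CD4 gates it was 34.9 and 33.8 CPM in non-cycling cells and 31.0 and 27.7 CPM in cycling cells, and both intervals of the log2 ratio include 0. So P4ha1 was 3.17-fold higher at day 14 while Ero1l stayed below the line for a call in every gate.

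Ankrd37 (chr8:45996902-46005707, minus strand) encodes a small ankyrin-repeat protein used as an indicator gene of HIF activity. It stood at 15.1 CPM (14.2 to 15.9) at day 7 and 38.5 CPM (37.2 to 39.9) at day 14, a log2 ratio of 1.35 (1.26 to 1.45). It was the only one of the 9 genes called higher in all 4 CD8 and CD4 gates, with log2 ratios of 1.43 and 1.35 in non-cycling and cycling CD8 cells and 0.69 and 1.57 in non-cycling and cycling CD4 cells. Bnip3, Egln3, Pdk1 and P4ha1 had under 100 UMIs in each CD4 gate and could not be called there. Their log2 ratios in non-cycling and cycling CD4 cells were 4.42 and 3.56, 3.18 and 2.60, 0.789 and 2.685, and 1.54 and 1.55. Ankrd37 lies over Ufsp2 and Lrp2bp on the opposite strand, and whether strand was used in counting was not given in the sources used here. Ufsp2 went from 30.1 to 37.9 CPM, a log2 ratio of 0.33 (0.25 to 0.41), and Lrp2bp had 9 and 18 UMIs. The antisense neighbour Gm15283 of Hif1a had a log2 ratio of 0.50 (0.29 to 0.71) at 3.82 and 5.40 CPM, and Gm45507, antisense to Bnip3, had 0 and 1 UMIs.

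Within gates, the counts of called genes were as follows. In non-cycling CD8 cells 6 of the 8 genes tested were called higher, beside 22.3% of all genes tested there, and in cycling CD8 cells 6 of 9, beside 14.3%. The 6 were Egln1, Bnip3, Pdk1, P4ha1 and Ankrd37 in both, with Hif1a in the non-cycling and Egln3 in the cycling gate. Bnip3 passed the minimum in both gates only through day 14, with 9 and 41 UMIs at day 7, and so did Egln3 in the cycling gate, with 51. Median-ratio scaling ended the calls of Hif1a in the non-cycling and of Egln1 in the cycling gate. In non-cycling CD4 cells 3 of 5 tested genes were called higher (Hif1a, Egln1 and Ankrd37), beside 18.9%, and in cycling CD4 cells 2 of 5 (Hif1a and Ankrd37), beside 9.06%. None of the 9 was called lower in these gates, beside 4.21% of all genes tested in non-cycling and 4.89% in cycling CD8 cells, and 3.77% in non-cycling and 3.92% in cycling CD4 cells. The CD4 gates held few cells, and 4 of the 9 genes stood under 100 UMIs in each.

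**Figure D3:**
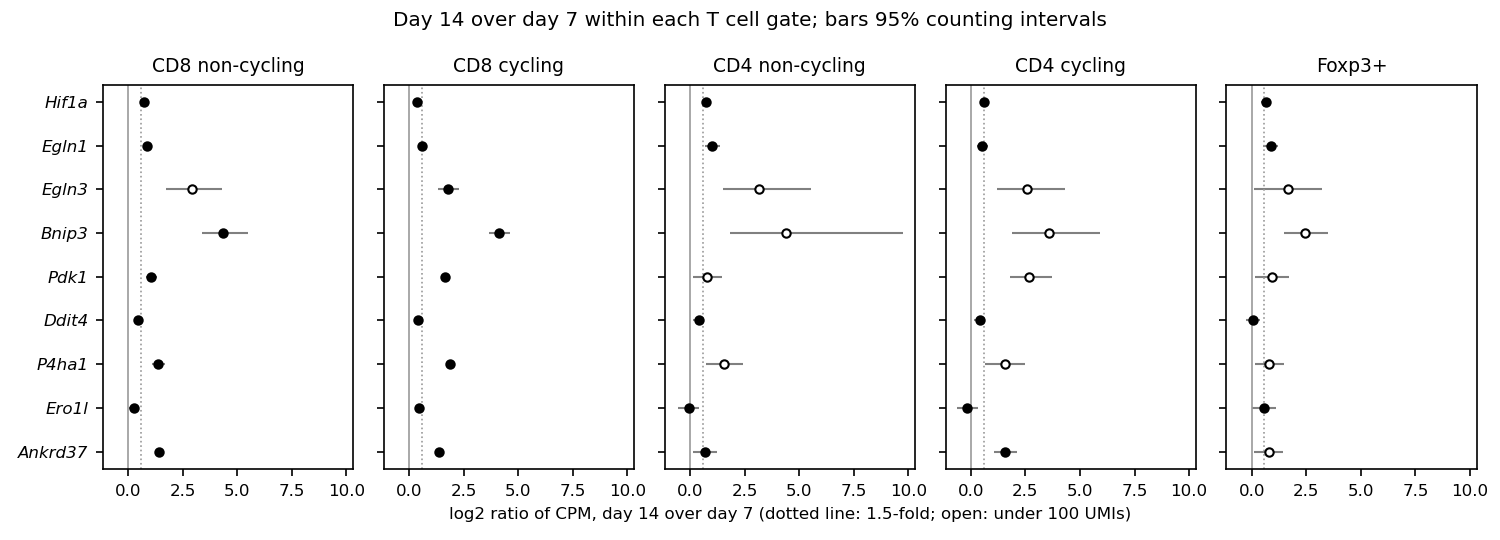
Log2 ratio of CPM, day 14 over day 7, of each gene in the 5 T cell gates, with 95% counting intervals as bars, filled points for genes with at least 100 UMIs and open points below that. Bnip3 is farthest to the right in every gate, from 2.44 in Foxp3+ cells to 4.42 in non-cycling CD4 cells, and Ero1l and Ddit4 lie near 0 or left of the dotted 1.5-fold line.

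The Foxp3+ gate took every T cell with at least 1 UMI of Foxp3, the lineage factor of regulatory T cells, and held 198 cells at day 7 and 90 at day 14. Of these, 157 (79.3%) and 51 (56.7%) held a Cd8a or Cd8b1 UMI while 35 (17.7%) and 30 (33.3%) held a Cd4 UMI, so its cells went against the usual CD4 identity of regulatory T cells and are called by their gate. In it 2 of 4 tested genes were called higher at day 14, beside 13.5% of all genes, and 0 lower, beside 3.33%. They were Hif1a, whose call was lost under median-ratio scaling (0.57), from 190 to 297 CPM, and Egln1, from 55.9 to 102 CPM. When cells were thinned to an equal number of UMIs, the log2 ratio of Egln1 changed sign and neither gene was called. Bnip3 went from 14 to 27 UMIs, 4.68 to 25.4 CPM, a log2 ratio of 2.44 (1.46 to 3.49), on fewer than 100 UMIs. At day 7 this gate stood above non-cycling CD4 cells in Bnip3, with 14 UMIs against 1, and in P4ha1, at 17.7 against 8.60 CPM, also on fewer than 100 UMIs. Against the same CD4 cells 0 of 5 tested genes were called at day 7, beside 12.6% of all genes called higher and 7.38% lower, and at day 14 only Ddit4 of 5, lower at 96.1 against 161 CPM, beside 11.3% called lower and 13.6% higher. The gate held a larger share of cycling genes (2960 against 231 CPM at day 7), whose part in these values was not tested.

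Between the lineages, Hif1a and Ddit4 were higher in non-cycling CD4 than in non-cycling CD8 cells at both times. Hif1a stood at 187 against 96.3 CPM at day 7 and 310 against 157 CPM at day 14, with log2 ratios of 0.96 (0.79 to 1.12) and 0.98 (0.86 to 1.10). Ddit4 stood at 122 against 70.9 CPM and 161 against 96.1 CPM, with log2 ratios of 0.79 (0.58 to 0.99) and 0.74 (0.58 to 0.91). The intervals of the lineage ratios overlap between the times for both genes. The stress sum also stood higher in the CD4 gate, at 565 against 459 CPM at day 7 and 646 against 413 CPM at day 14, and its part in these values was not tested. Ankrd37 and Ero1l were called higher in CD4 cells at day 7, at 23.3 against 13.4 CPM and 34.9 against 22 CPM, and not at day 14. Egln1, Pdk1 and P4ha1 were called at neither time, with log2 ratios at day 14 of 0.38 (0.19 to 0.58), 0.27 (-0.14 to 0.66) and 0.44 (0.01 to 0.84), and Bnip3 stood at 10.8 against 10.3 CPM at day 14. Of the genes tested, 4 of 7 were called higher in CD4 cells at day 7, beside 6.43% of all genes, and 2 of 8 at day 14, beside 8.87%. None was called lower, beside 4.30% and 4.54%.

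Cycling cells were those with at least 10 UMIs of 16 proliferation genes per 10000. In CD8 cells only Pdk1 was called by cycling, and only at day 7, when it was lower in cycling cells at 5.92 against 10.8 CPM, a log2 ratio of -0.87 (-1.14 to -0.60). At day 14 Pdk1 stood at 18.7 against 22.5 CPM, a log2 ratio of -0.26 (-0.45 to -0.08). That was 1 of 7 tested genes at day 7, beside 9.69% of all genes called lower, and 0 of 9 at day 14, beside 13.9% called lower and 13.0% called higher. Ddit4 was lower in cycling CD8 cells at both times, with log2 ratios of -0.49 (-0.59 to -0.39) and -0.51 (-0.60 to -0.42), just short of a call. Egln1 lay the other way, at 0.50 (0.39 to 0.61) and 0.24 (0.15 to 0.33). Cycling CD8 cells held more UMIs per cell than non-cycling ones, with medians of 12704 against 6780 at day 7 and 12146 against 5528 at day 14, and the comparison was repeated among cells of like depth, a split chosen after the data were seen. From 5000 to 10000 UMIs at day 7, Pdk1 stood at 7.67 against 10.5 CPM, a log2 ratio of -0.45 (-0.92 to 0.01) that is no longer 1.5-fold, and from 10000 UMIs on at -0.72 (-1.22 to -0.18). In the same classes at day 7 Egln1 gave 0.26 (0.07 to 0.45) and 0.40 (0.20 to 0.61), and Ddit4 gave -0.44 (-0.61 to -0.26) and -0.50 (-0.68 to -0.31).

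In CD4 cells Ddit4 was called lower in cycling cells at both times, at 76.5 against 122 CPM and 101 against 161 CPM. Hif1a and P4ha1 were also called lower at day 14, at 206 against 310 CPM and 16.2 against 25 CPM. These were 1 of 4 tested genes at day 7, beside 8.49% of all genes called lower, and 3 of 7 at day 14, beside 19.1%. None of the 9 was called higher in cycling CD4 cells, beside 15% (683 of 4568) and 17.1% of all genes. Cycling CD4 cells also held more UMIs per cell, with medians of 12400 against 6882.5 at day 7 and 11998.5 against 4364 at day 14. CD4 cells were not split by UMIs per cell, and the part of depth in these values was not tested. Pdk1 had 12 UMIs in cycling and 31 in non-cycling CD4 cells at day 7, a log2 ratio of -1.82 (-2.92 to -0.82) on fewer than 100 UMIs, and 74 and 65 at day 14, when the interval of -0.43 to 0.58 includes 0.

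The sort also held droplets whose largest lists were not those of T cells. The myeloid gate held 84 and 107 cells, with its own list at 160593 and 180338 CPM, and still carried the T list at 1477 and 1975 CPM. The part of T cell RNA in its values was not tested. Ero1l was the one gene called higher in myeloid than in T cells at both times, at 65.9 against 23.3 CPM at day 7 and 78.3 against 30.2 CPM at day 14. Hif1a, Egln1, Pdk1, Ddit4 and Ankrd37 were called lower at both times, with Hif1a at 50.3 against 115 CPM and 85.8 against 162 CPM. Each of the 9 had at most 91 myeloid UMIs at either time, so those tested against T cells passed the minimum through T cells. Pdk1 and Ankrd37 had 3 myeloid UMIs each at day 7. Under median-ratio scaling Egln1 lost the call at both times (-0.37 and -0.53), as did Ankrd37 (-0.38) and P4ha1 (-0.53) at day 14. Pdk1 lost it at day 7, when its interval came to include 0. P4ha1 at day 7 (1.04) and Bnip3 at day 14 (0.95) were then called higher. P4ha1 stood at 9.54 against 5.96 CPM at day 7 and 10.4 against 18.9 CPM at day 14, and Bnip3 at 4.34 against 0.94 CPM and 20.8 against 13.5 CPM, on 5 and 22 myeloid UMIs. In all 1 of 7 tested genes was called higher and 5 lower at day 7, beside 12.5% and 21.5% of all genes. At day 14 the counts were 2 higher (Ero1l and Egln3, the latter on 11 myeloid UMIs) and 6 lower of 9, beside 11.8% and 24.8%. Between the days, Hif1a was called higher in the myeloid gate, from 50.3 to 85.8 CPM, 1 of 2 tested genes beside 9.86%, and 0 lower, beside 5.36%.

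The erythroid gate held 124 cells at day 7 and 27 at day 14, with the globins and their companions at 4405 and 36519 CPM and the T list at 331 and 2198 CPM. At day 7 Pdk1 was higher there than in T cells, at 26.1 CPM (21.1 to 32.0) against 7.72 CPM, a log2 ratio of 1.76 (1.43 to 2.07). Hif1a was lower at 17.8 CPM (13.7 to 22.7) against 115 CPM, as were Ddit4 at 8.89 against 61.6 CPM and Ankrd37 at 2.78 against 15.1 CPM. P4ha1, with 4 erythroid UMIs, and Egln1 made 5 of 7 tested genes called lower, beside 27.0% of all genes, and Pdk1 the 1 called higher, beside 27.7%. The log2 ratio of Egln1 changed sign here when cells were thinned to an equal number of UMIs. At day 14 each gene had at most 7 UMIs in this gate, so all 9 passed the minimum through T cells alone. Hif1a, Egln1, Ddit4 and Ankrd37 were called lower, 4 of 9 beside 7.88%, and none of the 9 was called higher, beside 8.63%. Ankrd37 had 0 UMIs there, and the upper end of its interval was a log2 ratio of -1.05. Between the days none of 3 tested genes was called in the erythroid gate, beside 6.69% of all genes called higher and 7.66% lower.

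The other genes of the pathway were read from lists in the same T cells, with the same line for a call. Of 7 genes of the oxygen-sensing machinery, 6 were tested, with a median log2 ratio of 0.10. Of these 6, 1 was called higher, a share near the 18.5% of all tested genes, and 1 lower, beside 5.10%. Epas1, which encodes HIF-2α, was lower at day 14, at 12.3 CPM (1017 UMIs) against 29.5 CPM (2416 UMIs), a log2 ratio of -1.26 (-1.36 to -1.15). Cited2, a competitor of HIF-1α for its coactivators and itself a target, was higher at 126 against 76.6 CPM, 0.71 (0.67 to 0.76). Under median-ratio scaling Cited2 lost the call, at 0.48, and Epas1 did not, at -1.49. Egln2, the third prolyl hydroxylase, had 32.5 CPM at day 7 and 30.9 at day 14. The interval of its log2 ratio, -0.15 to 0.01, lies below those of Egln1 and Egln3. Epas1 and Hif1a, which encode alternative partners of ARNT, had log2 ratios of opposite sign. In CD8 cells Epas1 was lower in both gates, at -0.96 (-1.20 to -0.71) in non-cycling and -1.49 (-1.62 to -1.35) in cycling cells.

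Relatives of the 9 genes mostly had few UMIs. Of 8, 3 were tested and 1, Pdk3, was called higher, beside 18.5% of all tested genes, from 23.3 to 36.2 CPM, a log2 ratio of 0.63 (0.55 to 0.72). Under median-ratio scaling that call was lost, at 0.40. Bnip3l, the mitophagy receptor closest to Bnip3, was well covered at both times and went from 84.7 to 111 CPM, a log2 ratio of 0.40 (0.35 to 0.44), against 3.84 for Bnip3. Ero1lb went from 5.09 to 6.90 CPM, 0.44 (0.26 to 0.63).

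Of 16 further targets of HIF, 10 were tested, 5 were called higher and 1 lower, beside 18.5% and 5.10% of all tested genes, with a median log2 ratio of 0.53. Plod2, a collagen lysyl hydroxylase, went from 88 to 823 UMIs, 1.07 to 9.98 CPM, a log2 ratio of 3.22 (2.90 to 3.55). It was called in both CD8 gates, at 3.58 (2.86 to 4.39) in non-cycling and 3.08 (2.70 to 3.48) in cycling cells. Plod2 passed the minimum only through day 14, in T cells and in both gates, which held 17 and 63 UMIs at day 7. Mxi1, a MYC antagonist, followed at 0.94 (0.83 to 1.06), Fam162a at 0.81 (0.77 to 0.86), Angptl4 at 0.78 (0.59 to 0.97) and Narf at 0.59 (0.47 to 0.71). Under median-ratio scaling Fam162a (0.582), Angptl4 (0.546) and Narf (0.358) lost the call, and Plod2 (2.985) and Mxi1 (0.713) did not. Ndrg1 was lower, at 7.24 against 13.3 CPM, a log2 ratio of -0.88 (-1.02 to -0.73). Higd1a and Bhlhe40 had the most UMIs besides Fam162a and were not called, at 0.35 (0.32 to 0.37) and 0.02 (-0.02 to 0.06). Ak4, chosen after its values were seen, had 2 UMIs at day 7 and 90 at day 14, a ratio on fewer than 100 UMIs with an interval of 3.59 to 8.55 on the log2 scale.

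The glycolytic list, kept apart from the 9 genes, is given for scale. Of 12 genes, all tested, 8 were called higher and 0 lower, beside 18.5% and 5.10% of all tested genes, with a median log2 ratio of 0.79. The monocarboxylate transporter Slc16a3 had a log2 ratio of 2.46 (2.35 to 2.58), Tpi1 of 1.34 (1.32 to 1.37), Slc2a1 of 1.25 (1.14 to 1.36) and Pfkl of 1.02 (0.93 to 1.10). Pgam1 stood at 0.95, Pgk1 at 0.87, Ldha at 0.72 and Aldoa at 0.70. Under median-ratio scaling Ldha (0.49) and Aldoa (0.47) lost the call, and the other called genes did not. Gapdh, with the most UMIs, had 0.37 (0.36 to 0.38) and was not called.

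**Figure D4:**
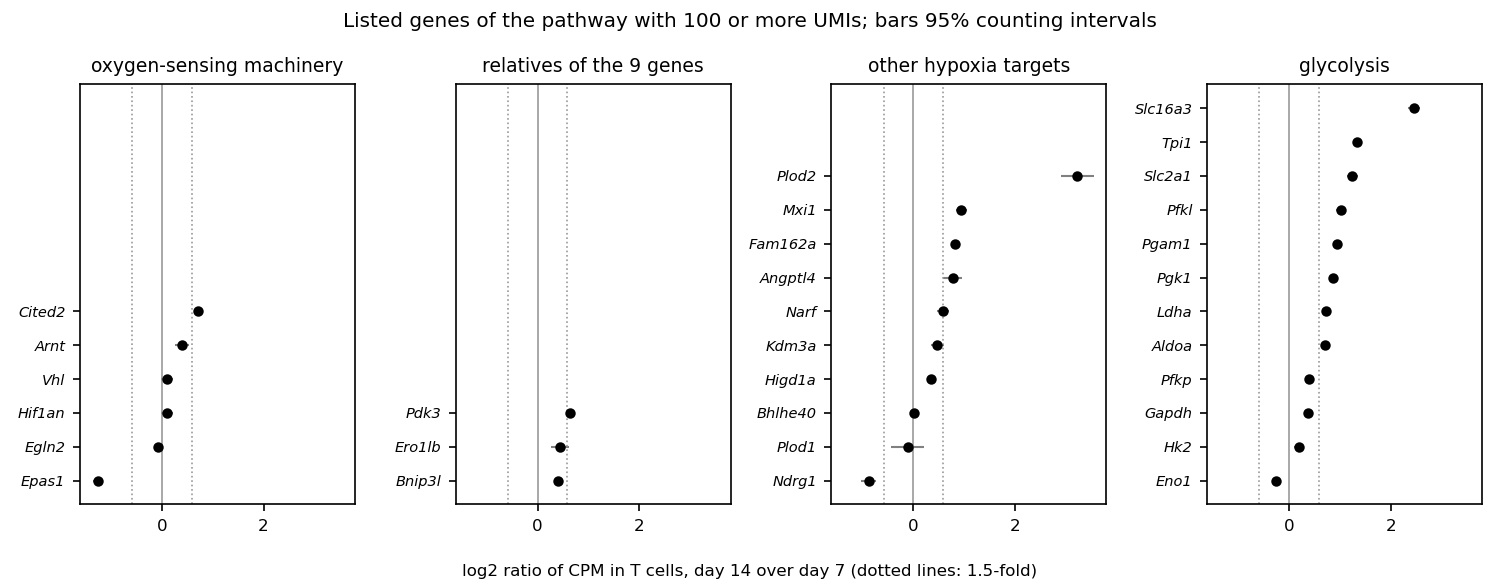
Log2 ratio of CPM in T cells, day 14 over day 7, for genes of 4 lists with at least 100 UMIs, with 95% counting intervals as bars and dotted lines at 1.5-fold in either direction. Plod2 at 3.22 and Slc16a3 at 2.46 lie farthest right, and Epas1 at -1.26 and Ndrg1 at -0.88 are the genes left of the lower line.

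The 9 genes were read further within CD8 cells of like depth, a split chosen after the data were seen. Among non-cycling CD8 cells with 5000 to 10000 UMIs (1767 cells at day 7 and 1201 at day 14), Bnip3 stood at 0.40 CPM (5 UMIs) and 9.89 CPM (80 UMIs). Pdk1 stood at 10.5 and 23.2 CPM there, P4ha1 at 6.46 and 19.4 CPM, Ankrd37 at 13.7 and 37.6 CPM, Egln1 at 44.0 and 83.5 CPM and Hif1a at 90.4 and 149 CPM. These 6 genes, and Ddit4 with log2 ratios of 0.14 to 0.60, were higher at day 14 in each of 3 depth classes of both CD8 gates. Ero1l was lower at day 14 in the shallow class of both, at -0.12 (-0.73 to 0.52) and -0.24 (-1.48 to 1.11), and higher in the other classes, at 0.08 to 0.49. Egln3 had at most 4 UMIs at day 7 in each class but that of deep cycling cells, where it went from 1.12 to 3.77 CPM. Of the 6 genes, Pdk1 in non-cycling cells under 5000 UMIs was the weakest, at 18.0 and 20.2 CPM, with an interval of -0.49 to 0.86 that includes 0. In cells under 5000 UMIs of the cycling gate, which held 81 cells at day 7, the intervals of Egln1, Bnip3, Pdk1, P4ha1 and Ddit4 also include 0.

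**Figure D5:**
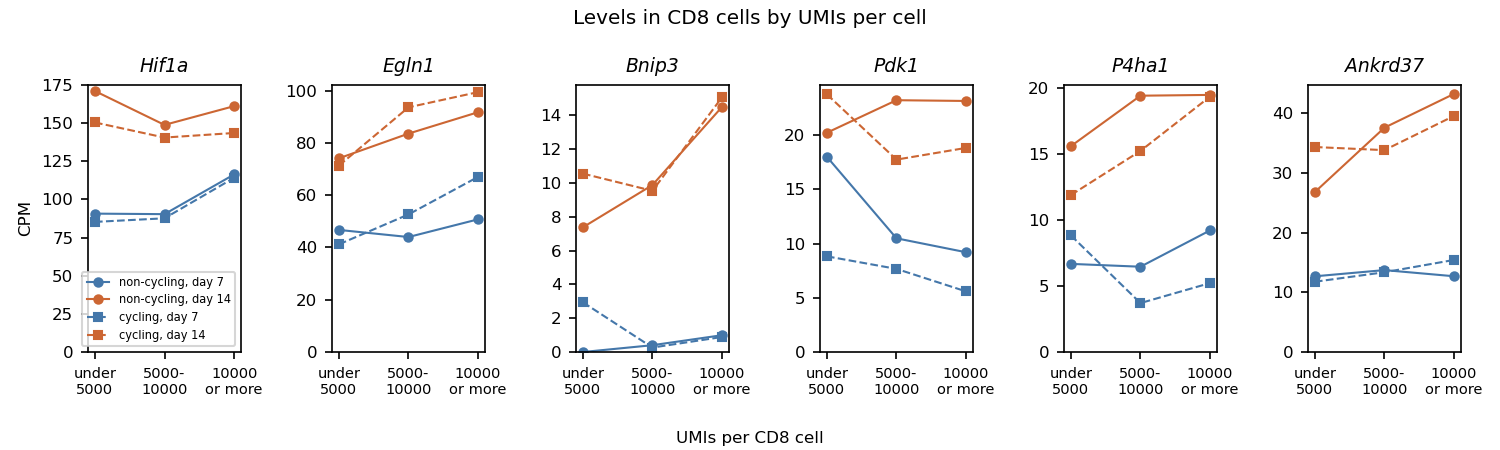
CPM (linear axes from 0, no error bars) of 6 genes in CD8 cells grouped by UMIs per cell, day 7 in blue and day 14 in orange, circles and solid lines for non-cycling and squares and dashed lines for cycling cells. The orange points lie above the blue ones in every depth class, closest together for Pdk1 in shallow non-cycling cells at 18.0 and 20.2 CPM.

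The same genes were then read in CD8 cells thinned to 4000 UMIs and split by marker genes, also chosen after the data were seen. Cells with a UMI of Gzma, a granzyme gene of cytotoxic cells, numbered 4603 at day 7 and 967 at day 14, beside 938 and 4549 cells without one. Bnip3 had 7 and 34 UMIs in cells with Gzma (0.38 and 8.79 CPM) and 1 and 231 UMIs in cells without it (0.27 and 12.7 CPM). Ankrd37 stood at 15.4 and 33.6 CPM with Gzma and at 14.4 and 38.2 CPM without. In cells with Tcf7, the factor of naive and memory-like cells, Bnip3 had 0 UMIs in 148 cells at day 7 and 16 in 272 cells at day 14. Splits by Ccl3 or Ccl4 and by Tox or Pdcd1 gave log2 ratios of Bnip3 between 4.66 and 5.36, of P4ha1 between 1.49 and 1.93 and of Pdk1 between 0.83 and 1.38. Those of Bnip3 rest on 3 to 5 UMIs at day 7 in each part. Their intervals lie between 3.08 and 7.09, too wide to compare the parts.

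Over the 14 day-by-gate groups, the mean centred log2(CPM + 1) of the 9 genes was highest in non-cycling CD4 cells at day 14 (1.15) and Foxp3+ cells at day 14 (1.13), and lowest in erythroid cells at day 7 (-1.43) and day 14 (-1.42). The day 14 erythroid gate held 27 cells, where Egln3, Bnip3 and Ankrd37 had 0 UMIs, each with an upper bound of 18.6 CPM. That bound lies above the day 14 T cell levels of Egln3 (4.56 CPM) and Bnip3 (13.5 CPM). The low place of this group, which enters the correlations below, is therefore uncertain. The correlation of each gene with the mean of the other members was between 0.67 and 0.87 for 7 genes, and 0.12 for Pdk1 and 0.23 for Ero1l. Among 7199 other genes averaging 10 CPM or more, the patterns most like the mean of the 9 were those of Cyld (Pearson's r = 0.970), a deubiquitinase, Med15 (0.949), Pgm1 (0.949), Stimate (0.941) and Nab1 (0.939). Cyld, for example, went from 42.6 to 81.7 CPM in non-cycling CD8 cells and from 52.6 to 107 CPM in non-cycling CD4 cells. In erythroid cells Cyld stood at 23.9 and 25.3 CPM, the latter on 5 UMIs. The 14 groups come from the same 2 libraries and share their depth, so these correlations describe the groups and carry no test.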

How the data were processed

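Donor T cells were captured on the 10x Genomics platform, 1 library per time point, and per the labels the authors used Cell Ranger 6.1.2 with the mm10 genome. The annotation release was not given in the sources used here. The deposited matrices hold raw UMI counts per gene and barcode (87124828 UMIs at day 7 and 84233811 at day 14), with no normalization.

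Barcodes were kept at 500 to 7500 genes and at most 15% mitochondrial UMIs. Gates were set by UMIs of marker genes: T cells by at least 3 UMIs of the T list, CD8, CD4 and Foxp3+ cells by at least 1 UMI of their genes, and non-T cells by a larger myeloid, erythroid or B list. UMIs were summed per gate and library (numpy 2.4.6, pandas 2.3.3) and divided by the gate's total, as CPM, with exact Poisson 95% intervals. Ratios had exact conditional binomial 95% intervals (scipy 1.17.1). Both cover counting error only, and 3 UMIs were 0.0346 and 0.0358 CPM of the kept cells. A gene was tested at 100 or more UMIs over both groups and called at 1.5-fold with an interval leaving out 1. With 1 library per group no p-value was computed. Steps were tested on simulated data. Scrublet in scanpy 1.11.5 marked 0 barcodes in either library, which means that it did not work here, so doublets stayed in the main values and the highest scores were left out as an alternative.

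The 9 genes, the other lists, the gates and the tests were chosen with earlier results of these data known. The 9 genes were counted in each comparison, and those not called or under 100 UMIs were in part left to the counts. Of the other lists, the genes named were the 3 with the most UMIs in T cells and each gene called between the days. Gene positions are those of GENCODE M21 (GRCm38), and windows before the start are from RefSeq (GRCm38.p6), where Ero1l is listed as Ero1a.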

Additional observations from a re-analysis of the deposited data

Results flagged for a closer look

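Hif1a stood apart between the days in its difference by cycling in CD8 cells. At day 7 cycling over non-cycling CD8 cells gave a log2 ratio of 0.193 (0.12 to 0.27), at 110 against 96.3 CPM, and at day 14 one of -0.132 (-0.20 to -0.07), at 143 against 157 CPM. The ratios lie on opposite sides of 0, and the difference between them was not tested because each day had 1 library. Among CD8 cells of like depth, a split chosen after the data were seen, Hif1a did not change sign. At day 7 the log2 ratio was -0.09 in cells under 5000 UMIs, -0.04 from 5000 to 10000 and -0.03 from 10000 on, each with an interval that includes 0. At day 14 it was -0.19 (-0.486 to 0.105), -0.08 (-0.201 to 0.034) and -0.17 (-0.296 to -0.035), so only the interval of the deepest class leaves out 0. Cycling CD8 cells were the deeper ones, and Hif1a at day 7 stood at 114 CPM in cycling cells of 10000 or more UMIs and at 87.7 CPM in those of 5000 to 10000. The part of depth in the ratios by cycling was not tested. In all CD8 cells the ratio reached 1.5-fold on neither day, and median-ratio scaling gave 0.19 and -0.09.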

How the results depend on the processing

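No paired analysis was possible because each time point had 1 library. Over all alternatives, 791 of 888 log2 ratios of the 9 genes moved by less than their counting interval, 95 moved by more and 2 reversed, both for Egln1 in cells thinned to 4000 UMIs: -0.116 between the days in Foxp3+ cells and 0.153 for erythroid over T cells at day 7. In T cells the day 14 over day 7 log2 ratios ranged over 10 alternatives from 2.90 to 4.38 for Bnip3, 1.47 to 2.68 for Egln3, 1.31 to 1.76 for P4ha1, 1.20 to 1.498 for Pdk1, 1.12 to 1.36 for Ankrd37, 0.45 to 0.76 for Egln1, 0.27 to 0.68 for Hif1a, 0.16 to 0.47 for Ddit4 and 0.15 to 0.38 for Ero1l. The number of genes called higher was 4 to 7 against 6, lowest with a minimum mean of 10 CPM, which leaves Bnip3 and Egln3 out by construction.

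Of 210 counts of called genes in all comparisons, 189 stayed within 1.5 times the main count and 21 did not. Median-ratio scaling gave 1 gene higher at day 14 in cycling CD4 cells (2 before) and 1 in Foxp3+ cells (2 before), and in myeloid over T cells 2 higher and 3 lower at day 7 (1 and 5 before) and 3 lower at day 14 (6 before). Thinning, which leaves fewer genes at 100 UMIs, gave 1 higher at day 14 in cycling CD4 cells, 0 in Foxp3+ cells and 0 in myeloid cells (1 before). It gave 0 lower in cycling CD4 cells at day 7 (1 before) and 0 at day 14 (3 before), 2 higher in CD4 over CD8 cells at day 7 (4 before) and 1 higher in Foxp3+ over CD4 cells at day 7 (0 before). It gave 1 lower in myeloid over T cells at day 7, 1 higher and 3 lower at day 14 (2 and 6 before), and 3 lower at day 7 and 1 at day 14 in erythroid over T cells (5 and 4 before). A requirement of 2 UMIs for a gate gave 1 higher in cycling over non-cycling CD4 cells at day 7 (0 before) and 1 lower at day 14. Leaving out the highest doublet scores also gave 1 higher in the former. Foxp3+ cells without Cd8a and Cd8b1, a gate chosen after the data were seen, gave 1 higher between the days. The cause was not tested beyond the loss of genes under 100 UMIs. With 1 library per time, depth limits the sparse members most: Bnip3 and Egln3 had 77 and 83 UMIs in T cells at day 7.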
